A study of Mus musculus with 5 samples.

Results

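The genes described here are those listed for H3K27me3 and for no other antibody in nuclei of striatal medium spiny neurons, apart from the chemosensory receptor genes. They were chosen by measured values: a gene symbol qualified when it had a region in the H3K27me3 list and none in the H3K4me3, H3K27ac and Pol II lists, and symbols that start with Olfr, Vmn, V1r or V2r were left out. This gave 3240 of the 9471 symbols of the H3K27me3 list (34.2%), in 3041 of its 8219 regions. The 4 lists together hold 38941 regions. Another 889 symbols met the rule on the lists and were left out as chemoreceptors. Across all 18155 symbols outside those prefixes that were in any list, 17.8% met the rule, and this share follows from the choice and is no result. Of 19566 protein-coding genes of RefSeq outside those prefixes, 2956 met it, or 15.1%. Genes of chemical sensing with other names stay among the 3240. They include 46 taste, trace amine, formyl peptide and guanylate cyclase receptor genes (Tas1r, Tas2r, Taar, Fpr and Gucy2d). The 15 Ms4a genes of the set are not in this count. The set is thus outside 4 prefixes rather than outside chemosensation.

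The study mapped chromatin by ChIP-seq, in which DNA bound to an antibody's target is sequenced. Nuclei came from the striatum of C57BL/6 mice at 8 weeks of age and were sorted by fluorescence on the neuronal antigen NeuN. The labels name no genotype, allele or treatment. There was 1 library each for H3K27me3, H3K4me3, H3K27ac and RNA polymerase II (Pol II), and 1 input library without antibody against which the lists were made. With 1 library per antibody there is no replicate check, and nothing below carries a test. NeuN marks neurons in general, so other striatal neurons can be among the sorted nuclei, and the labels give no number of animals. A mark on fewer nuclei and a weaker mark on all nuclei cannot be told apart in such lists.

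Trimethylation of lysine 27 on histone H3 (H3K27me3) is laid down by Polycomb repressive complex 2 and accompanies silenced genes. H3K4me3 lies at promoters, above all at those within CpG islands, and developmental regulators can carry both marks, a state called bivalent. Below, bivalent means only that a symbol was listed for H3K27me3 and H3K4me3 and for no other antibody. Such lists cannot tell whether both marks lay in the same nuclei. H3K27ac and Pol II accompany active promoters and enhancers. In neurons, H3K27me3 is known for covering regulators and products of other lineages.

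In 300 bases around the start, these genes had a median of 3 CG dinucleotides and genes with H3K27me3 and H3K4me3 only had 13. The rule left out genes with H3K4me3, so this difference is not independent of the choice. As examples, 8 promoters are shown. Each run is 300 bases, from 250 before to 50 after the RefSeq start on GRCm38.p6, read 5′ to 3′ on the gene's strand. Capitals mark CG dinucleotides, and TATAAA where it starts 20 to 40 bases before the gene's start. The first 5 belong to the highest-scoring member with a promoter window in each of the 5 largest gene groups that have such windows, which are provisional genes, keratins, serine proteases, CD antigens and cytochrome P450 enzymes. Krt32, chosen after its letters were seen, is the highest-scoring keratin gene with the motif. Nkx2-4 and Foxc1, the highest-scoring genes with H3K27me3 and H3K4me3 only, stand for comparison.
4921506M07Rik: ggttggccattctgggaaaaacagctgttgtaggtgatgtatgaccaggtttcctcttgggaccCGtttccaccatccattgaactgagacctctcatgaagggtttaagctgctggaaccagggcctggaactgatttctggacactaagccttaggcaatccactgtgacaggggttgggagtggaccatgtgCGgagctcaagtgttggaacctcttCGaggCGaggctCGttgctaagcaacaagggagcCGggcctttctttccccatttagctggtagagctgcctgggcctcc
Krt8: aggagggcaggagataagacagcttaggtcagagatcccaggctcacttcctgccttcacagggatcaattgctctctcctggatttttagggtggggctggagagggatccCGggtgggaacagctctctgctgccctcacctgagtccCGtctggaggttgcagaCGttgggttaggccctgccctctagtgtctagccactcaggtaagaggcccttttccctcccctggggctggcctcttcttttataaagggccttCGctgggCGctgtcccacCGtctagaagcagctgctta
Cela1: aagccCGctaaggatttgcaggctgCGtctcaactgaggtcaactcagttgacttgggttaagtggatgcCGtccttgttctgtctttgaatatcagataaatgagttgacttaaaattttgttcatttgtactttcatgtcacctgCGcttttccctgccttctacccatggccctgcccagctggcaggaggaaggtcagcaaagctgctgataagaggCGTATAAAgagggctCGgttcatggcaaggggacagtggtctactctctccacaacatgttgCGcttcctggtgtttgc
Cd207: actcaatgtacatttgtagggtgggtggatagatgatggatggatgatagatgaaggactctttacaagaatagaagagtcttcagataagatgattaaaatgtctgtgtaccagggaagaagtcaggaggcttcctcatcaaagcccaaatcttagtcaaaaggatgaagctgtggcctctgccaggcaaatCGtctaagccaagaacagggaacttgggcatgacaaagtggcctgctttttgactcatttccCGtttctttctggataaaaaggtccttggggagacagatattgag
Cyp26c1: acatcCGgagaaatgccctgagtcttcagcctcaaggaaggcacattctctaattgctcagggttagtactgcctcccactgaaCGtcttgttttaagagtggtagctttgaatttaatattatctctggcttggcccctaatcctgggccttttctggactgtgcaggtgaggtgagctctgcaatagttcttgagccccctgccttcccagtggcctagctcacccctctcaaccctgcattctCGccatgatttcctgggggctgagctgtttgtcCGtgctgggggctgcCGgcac
Krt32: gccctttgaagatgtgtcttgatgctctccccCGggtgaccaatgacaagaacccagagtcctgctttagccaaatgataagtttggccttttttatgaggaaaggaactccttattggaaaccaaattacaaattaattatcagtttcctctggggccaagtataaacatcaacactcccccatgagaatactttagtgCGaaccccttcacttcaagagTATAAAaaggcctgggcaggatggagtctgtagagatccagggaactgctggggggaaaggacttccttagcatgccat
Nkx2-4: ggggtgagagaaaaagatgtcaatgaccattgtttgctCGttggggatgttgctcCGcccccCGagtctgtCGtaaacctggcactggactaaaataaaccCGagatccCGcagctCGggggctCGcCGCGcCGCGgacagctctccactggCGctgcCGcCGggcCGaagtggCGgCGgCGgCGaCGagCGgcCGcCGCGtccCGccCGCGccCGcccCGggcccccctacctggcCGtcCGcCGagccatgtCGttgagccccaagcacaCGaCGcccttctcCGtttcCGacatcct
Foxc1: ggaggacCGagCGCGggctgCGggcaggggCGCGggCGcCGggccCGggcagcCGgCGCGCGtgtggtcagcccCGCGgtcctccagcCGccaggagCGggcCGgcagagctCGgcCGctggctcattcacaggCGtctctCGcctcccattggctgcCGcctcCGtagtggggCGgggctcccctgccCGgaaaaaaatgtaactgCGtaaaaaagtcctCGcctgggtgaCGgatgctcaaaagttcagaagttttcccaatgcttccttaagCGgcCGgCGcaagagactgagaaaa

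4921506M07Rik (chr12:57563865-57564164, plus strand) held 6 CG dinucleotides, Krt8 (chr15:102004293-102004592, minus strand) 6, Cela1 (chr15:100687871-100688170, minus strand) 7, Cd207 (chr6:83677808-83678107, minus strand) 2, and Cyp26c1 (chr19:37685430-37685729, plus strand) 5. Krt32 (chr11:100088220-100088519, minus strand) held 2. Nkx2-4 (chr2:147085296-147085595, minus strand) held 38, and Foxc1 (chr13:31806396-31806695, plus strand) held 32. Both counts are far above the median of 13 in genes with H3K27me3 and H3K4me3 only, so these promoters are not typical of that class. The TATAAA of Cela1 started 27 bases before the gene's start and that of Krt32 29 bases before. Krt8 also holds the letters, but 1 base before the RefSeq start and so outside the range searched.

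Among the 75 microRNA genes in the set, the miR-290 cluster had the only seeds found in 3 genes, and the miR-200 cluster shares seeds between 2. Sequences of both, from RefSeq, are shown as examples with the seed (bases 2 to 8) in capitals.
miR-291a-3p: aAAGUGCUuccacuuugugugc
miR-294-3p: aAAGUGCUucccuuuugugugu
miR-295-3p: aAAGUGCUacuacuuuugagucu
miR-290a-5p: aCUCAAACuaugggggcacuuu
miR-292a-5p: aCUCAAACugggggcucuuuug
miR-293-5p: aCUCAAACugugugacauuuug
miR-200b-3p: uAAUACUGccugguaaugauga
miR-429-3p: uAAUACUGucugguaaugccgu

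Across the set, H3K27me3 regions were of middling width and mostly of modest score. The widest region of a gene had a median of 15.6 kb in the 3240 H3K27me3-only genes, with quartiles of 7.5 and 33.5 kb. The median was 24.6 kb in the 2989 genes with H3K27me3 and H3K4me3 only and 16 kb in all 9471 genes of the list. The highest score of a gene, which is the authors' value over input on a scale the sources used here do not give, had a median of 3.26 in H3K27me3-only genes, 5.27 in the genes with H3K27me3 and H3K4me3 only, and 3.59 in the whole list. Scores of 6 or more were listed for 252 of the 3240 genes (7.78%) and for 1234 of the 2989 (41.3%). Scores under 3 were listed for 1356 (41.9%) and 502 (16.8%). The 889 chemoreceptor genes had medians of 11.4 kb and 2.81, and the 1290 genes listed for all 4 antibodies had medians of 10.9 kb and 3.35. These are descriptions, since the rule used the same lists. In these classes, here and below, chemoreceptor prefixes were removed only from the H3K27me3-only genes. The classes with other marks can therefore still hold chemoreceptor genes.

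**Figure D1:**
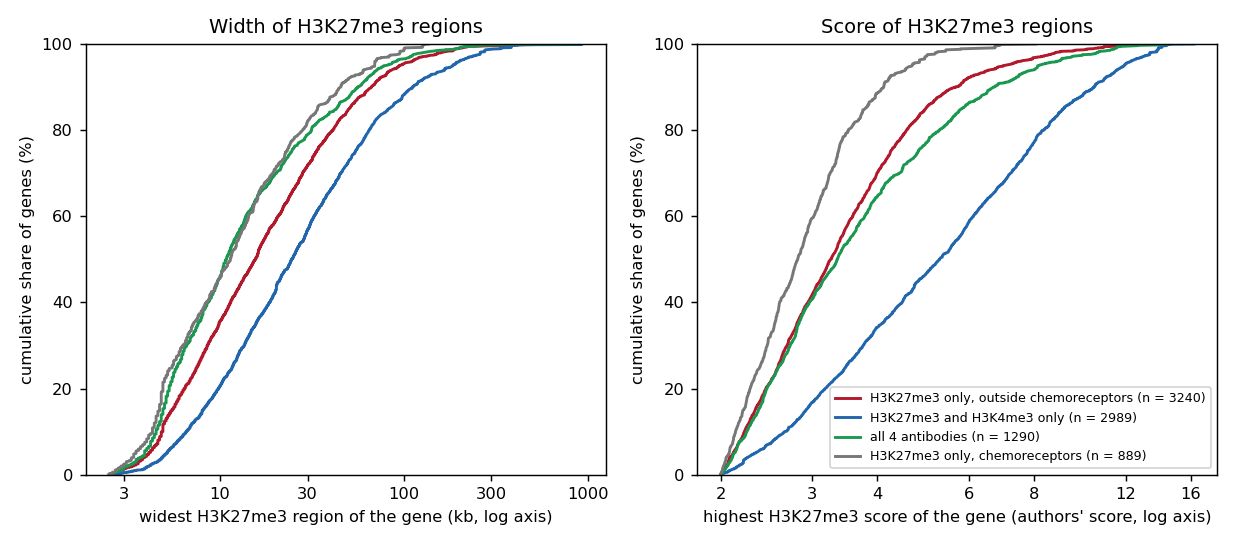
Cumulative share of genes by the width of their widest H3K27me3 region (left, kb, log axis) and by their highest H3K27me3 score (right, authors' score, log axis), for 4 classes of genes. The curve of the 3240 H3K27me3-only genes lies left of that of the 2989 genes with H3K27me3 and H3K4me3 only in both panels, with medians of 15.6 against 24.6 kb and 3.26 against 5.27.

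Most of the genes had a region to themselves. For 2177 of the 3240 (67.2%), every region was listed for that gene alone; such regions had a median width of 9.9 kb and a median score of 2.83. A further 609 genes (18.8%) had a region listed for other H3K27me3-only genes too, and 19 shared theirs with a chemoreceptor gene. The remaining 435 genes (13.4%, exact 95% interval 12.3 to 14.6, which covers counting error only) were in a region that was also listed for a gene with another mark. These 331 regions were wider and scored higher, with medians of 40.4 kb and 5.14. Width and score moved together over the 3240 genes (Pearson correlation of their log2 values 0.80, a description over genes that share 1 library). Whether width accounts for the higher scores of regions with a marked neighbour was not tested.

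The share of regions with a marked neighbour grew with width. It was 1.01% of the 497 regions of 5 kb or less, 2.97% at 5 to 10 kb, 6.81% at 10 to 20 kb, 16.2% at 20 to 50 kb, 38.8% at 50 to 100 kb and 55.2% of the 96 regions over 100 kb. Of the 50 highest-scoring genes 47 had a marked neighbour in their region, of the highest 100 there were 85, and of the lowest 100 there were 0. The neighbours were 473 genes, of which 304 carried H3K4me3 and H3K27me3 only and 169 carried H3K27ac or Pol II. In 182 of the 3240 genes (5.62%), the neighbour was listed for H3K27ac or Pol II.

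**Figure D2:**
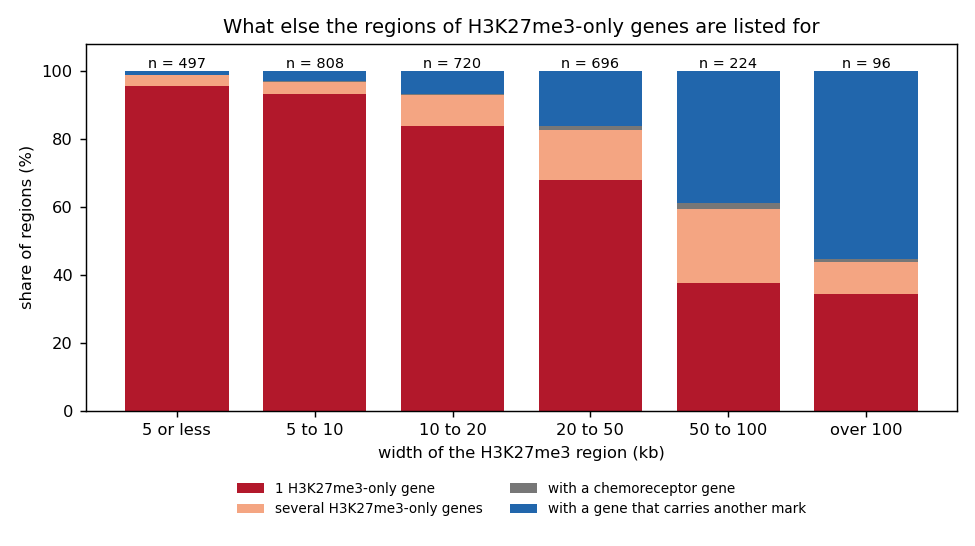
Share of the 3041 regions of H3K27me3-only genes (%, vertical) by the width of the region (kb, horizontal), split by what else the region is listed for; the number of regions stands above each bar. Regions shared with a gene that carries another mark make up 1.01% of the narrowest and 55.2% of the widest class.

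By position, few of these regions touched another antibody's region. Of the 3041 regions, 309 (10.2%, interval 9.11 to 11.3) shared bases with an H3K4me3 region, against 3986 of the other 5178 H3K27me3 regions (77.0%) and 52.3% of all 8219. For H3K27ac the counts were 98 (3.22%) and 1540 (29.7%), and for Pol II 63 (2.07%) and 870 (16.8%). The absence of the other marks at the genes themselves came from the rule, which also lowers these shares. The other 5178 regions include those of H3K27me3-only chemoreceptor genes, which lack the other marks by the same rule on the lists. Of the 309, 302 were regions with a marked neighbour. In the 2421 regions listed for 1 H3K27me3-only gene, 7 shared bases with an H3K4me3 region and 1 with an H3K27ac region.

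Of the 10 highest-scoring regions, 9 were also listed for a gene with another mark, often a developmental regulator. Blk, a Src-family kinase of B cells, led with a score of 14.3 in a region of 337.4 kb (chr14:63799201-64136600, mm9). That region was also listed for Gata4, a regulator of heart and endoderm with H3K4me3 and H3K27me3, and for Fdft1, an enzyme of sterol synthesis listed for all 4 antibodies. Calcoco2, an autophagy receptor gene, scored 13.3 in a region of 384.3 kb (chr11:95944701-96329000) that spans Hoxb1 to Hoxb9 and Hoxb13, all with H3K4me3. Neither region shared bases with an H3K27ac or Pol II region.

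Tifab, a regulator of innate immune signalling, scored 13.3 and lay with Neurog1, a proneural factor, in a region of 125.0 kb (chr13:56254401-56379400). Pdzk1ip1, which encodes a small membrane protein, scored 12.7 beside Tal1, the blood stem cell factor, in a region of 66.0 kb (chr4:114711701-114777700). The provisional gene 4921506M07Rik scored 12.7 beside Foxa1, an endoderm factor, in a region of 81.8 kb (chr12:58614301-58696100). Tal1 and Foxa1 were also listed for Pol II, and each of these regions shared bases with 1 Pol II region.

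Gip, an incretin hormone gene of the gut, scored 12.5 (172.6 kb, chr11:95723401-95896000) beside Igf2bp1, B4galnt2 and Snf8. Bcas1, a gene of myelinating oligodendrocytes, scored 12.3 (264.4 kb, chr2:170068801-170333200) beside Cyp24a1, a vitamin D hydroxylase, and Pfdn4. Pfdn4 was listed for all 4 antibodies, though the region shared bases with no H3K27ac or Pol II region. Catsper3, a subunit of the sperm calcium channel, scored 11.97 (217.5 kb, chr13:55883701-56101200) beside Pitx1, a limb and pituitary factor. Snf8 and Pitx1 were also listed for Pol II, and the regions of Gip and Catsper3 each shared bases with 1 Pol II region. Cnpy1, known in zebrafish for fibroblast growth factor signalling, scored 11.96 (188.6 kb, chr5:28419701-28608300) beside En2, a midbrain and hindbrain factor. Homeobox and forkhead genes were neighbours in 8 of the 50 highest-scoring regions with a marked neighbour, and in 10 of all 331.

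Fcgr1, the high-affinity immunoglobulin G receptor of macrophages, was the only one of the 10 highest-scoring regions with no other gene. It scored 12.2 over 57.6 kb (chr3:96094201-96151800). Outside the rule for named genes, and picked after their values were seen, the next regions without a marked neighbour were Runx3, a factor of T cells and sensory neurons (score 11.4, 117.7 kb, chr4:134623501-134741200), and Jph2, a junctophilin of heart muscle (score 10.4, 117.2 kb, chr2:163110501-163227700). No region of H3K4me3, H3K27ac or Pol II shared bases with any of these. Separately listed H3K27me3 regions can lie side by side, as around the miR-290 cluster, so that a listed width can be shorter than the whole marked stretch.

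**Figure D3:**
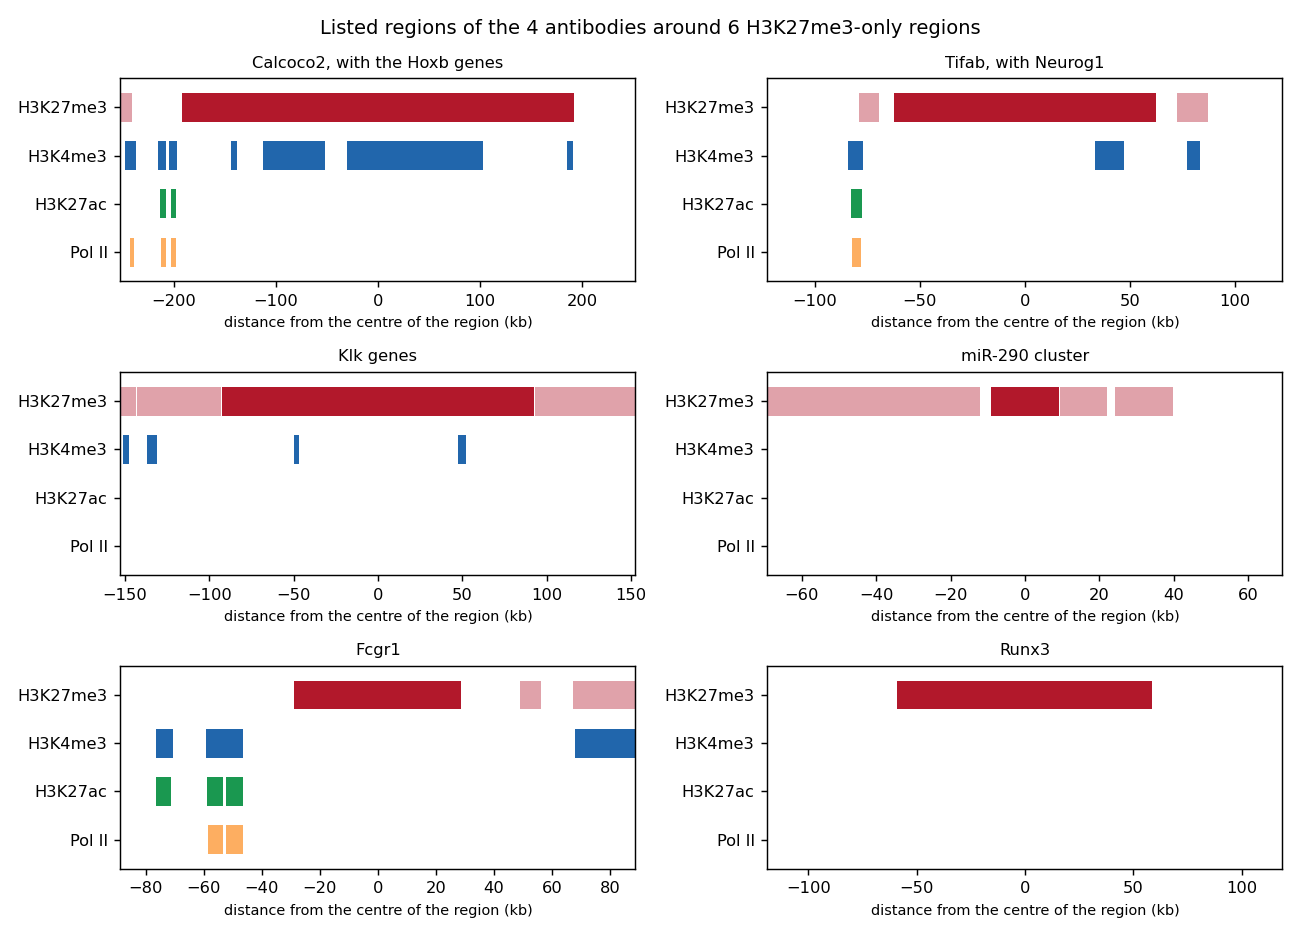
Regions listed for the 4 antibodies around 6 example regions of H3K27me3-only genes, by distance from the centre of the example region (kb, horizontal; each panel has its own scale). The example region is solid red and other H3K27me3 regions are pale; H3K4me3 regions lie inside the regions of Calcoco2, Tifab and the Klk genes, and none lies inside those of the miR-290 cluster, Fcgr1 and Runx3.

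The widest regions also ran across several genes. Csf3r, the receptor of a granulocyte growth factor, and 2610028E06Rik shared a region of 915.4 kb (chr4:124806401-125721800, score 6.75) with Grik3, a kainate receptor gene listed for all 4 antibodies. Crybb2 and Crybb3, lens crystallins, and Myo18b, a muscle myosin, lay in 530.2 kb (chr5:112983501-113513700, score 7.57) with Sez6l and Adrbk2. Dmbt1, a glycoprotein of mucosal surfaces, and Cuzd1 lay in 415.0 kb (chr7:138058101-138473100, score 10.1) with 3 provisional genes of the set, and with Htra1, a secreted protease gene.

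Rtp1, which helps odorant receptors reach the cell surface, lay in 347.3 kb (chr16:23403901-23751200, score 7.68) with Masp1 and Rtp4. Kcnj1, a kidney potassium channel, lay in 301.3 kb (chr9:32203301-32504600, score 10.2) with Ets1 and Fli1. Kcnj15, another inward rectifier channel, was alone in 311.0 kb (chr16:95308401-95619400, score 6.29), and 9530008L14Rik was alone in 269.3 kb (chr13:41767801-42037100, score 7.46). The region was wider than the RefSeq gene in 1930 of 3211 H3K27me3-only genes with a matched length (60.1%), in 1823 of 2980 genes with H3K27me3 and H3K4me3 only (61.2%), and in 461 of 1289 genes listed for all 4 antibodies (35.8%). Gene lengths are from GRCm38.p6 and region widths from mm9.

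Gene clusters made up many of the shared regions. Of the 273 regions listed for several H3K27me3-only genes and nothing else, 216 were listed for 2 and 40 for 3, and in 97 (35.5%) at least 2 of the genes matched the same symbol pattern. The region with most genes of the set held 10 microRNAs of the chromosome 12 cluster around Mir376b and Mir495 (4.8 kb, chr12:110954501-110959300), with a score of only 2.28. It was also listed for Mir376a, which has H3K4me3. Its neighbour held 9, among them Mir379 and Mir411 (6.0 kb, chr12:110945101-110951100, score 2.11). A region on chromosome 7 held 8 tissue kallikrein genes or relatives, among them Klk5, Klk15 and Klk1b26 (185.4 kb, chr7:51093801-51279200, score 6.43), beside Klk4 and Klk1b9, which have H3K4me3. A second kallikrein region held Klk1, Klk1b3, Klk1b4, Klk1b5, Klk1b24 and 1700028J19Rik and no marked gene (79.6 kb, chr7:51416201-51495800, score 4.78).

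The 4 lists were next read by gene family, through 51 symbol patterns. Of these, 46 had an H3K27me3-only share above the 17.8% of all listed symbols, 42 had at least 2 times that share, and 34 had 50% or more. The patterns were written with these genes known, so the shares describe the set. Family genes without a region in any of the 4 lists are not counted in these shares. Together they took in 1507 of the 3240 genes (46.5%), and 1034 outside the pattern of provisional Rik and Gm symbols. A pattern can also catch unrelated genes: Prlh, a neuropeptide gene, is under the prolactins and the casein kinase genes Csnk1a1 and Csnk1d are under the caseins.

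The shares moved with the scores required. With the upper 50% of H3K27me3 regions, where 9.85% of all listed symbols were H3K27me3-only, cornified envelope proteins stood at 42.9%, against 85.7% with all regions. There taste receptors stood at 33.3% against 81.8%, X-linked germline families at 12.5% against 57.6%, C-type lectins and killer cell receptors at 42.9% against 72.9%, spermatogenesis genes at 22.2% against 40%, and microRNAs at 15.7% against 28.5%. When only the upper 50% of each other list removed a gene, the share of all listed symbols was itself 43.5%, against 17.8% with all regions. There cytochrome P450 enzymes stood at 91.2% against 46.8% and interleukins and their receptors at 88.7% against 55.1%. Spermatogenesis genes stood there at 72.1% and microRNAs at 65.1%. Without genes whose region shares bases with another antibody's region, 15.7% of all listed symbols qualified. There trypsin-like and kallikrein proteases stood at 49.4% against 75.3% and globins at 33.3% against 66.7%.

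**Figure D4:**
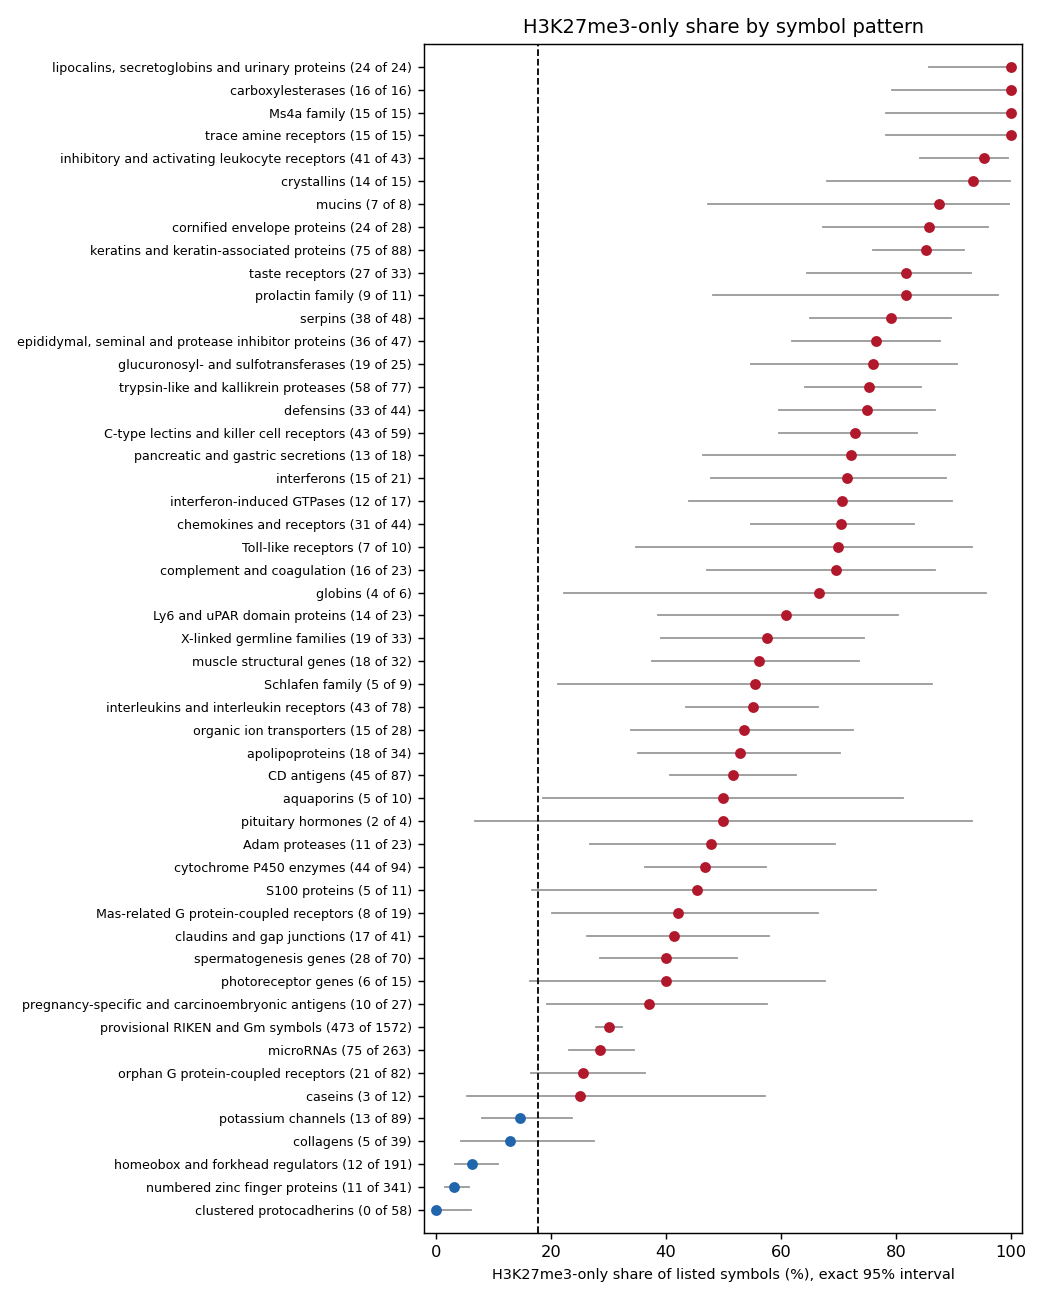
H3K27me3-only share of the symbols in any list (%, horizontal) for 51 symbol patterns (vertical, with counts), with exact 95% intervals that cover counting error only. The dashed line marks the 17.8% of all listed symbols; 46 patterns (red) lie above it and 5 (blue) below.

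Most listed genes of the keratin, cornified envelope, mucin, crystallin and defensin patterns were H3K27me3-only. Lower shares were found for claudins and gap junctions, with 17 of 41 (41.5%). Pregnancy-specific and carcinoembryonic antigens, of placenta and epithelia, counted 10 of 27 (37.0%). Keratins and keratin-associated proteins, which build epithelial filaments and hair, were H3K27me3-only in 75 of 88 listed symbols (85.2%, interval 76.1 to 91.9). Krt8 had the highest score of these, 8.80 over 61.2 kb. Its region was shared with Krt18, the usual filament partner of Krt8, which has H3K4me3. Krt7, Krt81 and Krt86 shared 94.1 kb with a score of 7.95, and Krt13 and Krt15 shared 70.8 kb with a score of 7.39. Krt10 and Krt222 were listed for H3K4me3 and H3K27ac and not for H3K27me3.

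Proteins of the cornified envelope, the barrier layer of skin, counted 24 of 28 (85.7%), led by Ivl (4.54 over 15.1 kb) and Kprp (4.28 over 14.1 kb), and their median width was 7.05 kb against 16.6 kb in keratins. Mucins counted 7 of 8. Muc5ac and Muc5b, gel-forming mucins of the airway and stomach, shared 99.5 kb with a score of 4.36, and Muc1 was the exception, with H3K4me3, H3K27ac and Pol II. Crystallins of the lens counted 14 of 15, Cryba2 being bivalent. Defensins, antimicrobial peptides, counted 33 of 44 and were led by Defb2, Defb9 and Defb10 in 1 region (4.18 over 81.6 kb).

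Secreted enzymes and carriers of liver, gut and glands had shares that ran up to all listed members. All 16 listed carboxylesterases and all 24 listed lipocalins, secretoglobins and urinary proteins were in the set. So were all 15 listed trace amine receptors, a family of olfactory and trace amine sensing. Ces3a, Ces3b and Ces4a led the esterases with 5.79 over 125.6 kb, and Ces5a was lowest with 2.005 over 3.6 kb. Lcn4 led the lipocalins with 5.87 over 42.9 kb. Serpins counted 38 of 48, with Serpina1b, Serpina1f and Serpina6 in 1 region (4.45 over 91.5 kb), while Serpini1 and Serpine2, known from neurons and glia, carried H3K4me3, H3K27ac and Pol II. Trypsin-like and kallikrein proteases counted 58 of 77 and had a high median score, 4.77. Cela1, a pancreatic elastase, led them with 10.004 over 120.4 kb.

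Cytochrome P450 enzymes were divided, with 44 of 94 in the set and 38 bivalent. Cyp26c1, which breaks down retinoic acid, led with 8.62 over 64.9 kb and shared that region with its relative Cyp26a1, which has H3K4me3. Cyp51, of sterol synthesis, and Cyp46a1, the brain cholesterol hydroxylase, carried H3K4me3, H3K27ac and Pol II. Clotting and complement proteins counted 16 of 23. The 3 fibrinogen genes Fga, Fgb and Fgg shared 48.8 kb with a score of 4.80. Pancreatic and gastric secretions counted 13 of 18, among them Ins1 with 3.27 over 10.5 kb and Cpa1 with 3.97 over 28.5 kb.

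Immune genes formed another large share. Inhibitory and activating receptors of leukocytes counted 41 of 43 (95.3%), with Fcgr1 first, then Cd300lf (7.87 over 36.3 kb) and Siglec1 (7.58 over 45.0 kb); Fcgr3 and Fcrlb carried H3K4me3. All 15 listed Ms4a genes, which include the B cell gene Ms4a1 (2.80 over 8.0 kb), were in the set. C-type lectins and killer cell receptors counted 43 of 59, interferons and their receptors 15 of 21, chemokines and their receptors 31 of 44 and Toll-like receptors 7 of 10. The type I interferon genes Ifna1, Ifna4 and Ifna5 shared 55.8 kb with Ifne, with a score of 4.97, and Ifnb1 had 3.28 over 12.8 kb. Both chains of their receptor, Ifnar1 and Ifnar2, carried H3K4me3, H3K27ac and Pol II, and Ifnar2 also had H3K27me3. Interleukins and their receptors counted 43 of 78, led by Il1rn (10.8 over 220.6 kb), the antagonist of interleukin 1 receptors.

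Germline, muscle and blood genes were in the set in part. Spermatogenesis genes counted 28 of 70 and X-linked germline families 19 of 33. Muscle structural genes counted 18 of 32, with Myl3 (8.78 over 61.4 kb) and Myh3 (6.83 over 34.5 kb) first. Of 6 globin genes, the embryonic genes Hbb-y and Hbb-bh1 (3.94 over 30.2 kb) and Hba-x (4.71 over 35.7 kb) were in the set with Hbq1, and the adult genes Hba-a1 and Hba-a2 were bivalent.

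Of the 5 patterns below the overall share, clustered protocadherins counted 0 of 58, of which 35 were bivalent. Numbered zinc finger proteins counted 11 of 341 and homeobox and forkhead regulators 12 of 191, of which 121 were bivalent. Collagens counted 5 of 39 and potassium channels 13 of 89. These low shares changed with the score required in the other lists. When only the upper 50% of each other list removed a gene, 92.1% of protocadherins, 83.3% of collagens, 78.4% of homeobox and forkhead regulators, 44.4% of potassium channels and 28.5% of zinc finger proteins qualified, against 43.5% of all listed symbols.

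Further lists were written after the set had been seen, and their shares are set beside the 17.8% of all listed symbols. Of 25 listed granule protease genes of killer and mast cells, 23 were H3K27me3-only (92.0%, interval 74.0 to 99.0). Prf1, which encodes the pore-forming perforin, had 7.27 over 210.2 kb, and Gzmb had 3.6 over 17.2 kb. Of 31 listed oocyte and pluripotency genes 22 were in the set (71.0%, interval 52.0 to 85.8), among them Tet1 (7.05 over 18.3 kb), Pou5f1 (6.66 over 31.8 kb) and Nanog (4.43 over 10.9 kb). Of 45 neuropeptide genes 12 were in the set (26.7%), a share whose interval of 14.6 to 41.9 holds that of all listed symbols, among them Gnrh1 (3.62 over 51.4 kb), Galp (5.14 over 48.3 kb), Vip (2.25 over 6.9 kb) and Nts (2.11 over 3.2 kb). Of 14 genes of monoamine synthesis and transport 6 were in the set (42.9%, interval 17.7 to 71.1, whose lower end is under that share): Th, of catecholamine synthesis (4.96 over 87.6 kb, beside Ascl2), Ddc (2.26 over 8.0 kb), Tph1 (5.40 over 36.4 kb), Tph2 (2.96 over 10.1 kb), Hdc (3.22 over 14.1 kb) and Aanat (4.56 over 35.4 kb).

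Markers of the labelled cell type were absent from the set. Of 10 listed medium spiny neuron markers, 0 were H3K27me3-only (interval 0 to 30.85%). All 10 carried H3K27ac or Pol II, 5 of them with H3K27me3 as well. Of 4 listed general neuron markers, 0 were in the set (interval 0 to 60.2%) and 0 had H3K27me3. Both intervals hold the 17.8% of all listed symbols, so these short lists do not set the markers apart from other genes by this share. Markers of other brain cells were in the set in part: Aqp4 (3.98 over 21.7 kb) and Aldh1l1 (6.34 over 42.0 kb) of 6 astrocyte markers, Mag (6.80 over 69.8 kb) and Mobp (5.44 over 43.0 kb) of 5 oligodendrocyte markers, Cx3cr1 (3.75 over 68.4 kb) and Tmem119 (5.90 over 49.0 kb) of 3 microglia markers, and Pecam1, Tie1 and Tek of 6 endothelial markers. Among the rest, 1 astrocyte and 2 oligodendrocyte markers carried H3K27ac or Pol II, and the part that nuclei of such cells play in the lists was not tested. The intervals of these shares also hold 17.8%. They run from 4.33 to 77.7% for astrocyte, 5.27 to 85.3% for oligodendrocyte, 9.43 to 99.2% for microglia and 11.8 to 88.2% for endothelial markers.

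The 75 microRNA genes were 28.5% of the 263 listed microRNA symbols and lay in 52 regions, and 25 of them shared a region with a marked gene. The miR-290 cluster, which acts in embryonic stem cells, was listed over 18.5 kb with a score of 5.85 (chr7:3204201-3222700), with 7 microRNAs and the host transcript LOC100303645. Of the sequences printed above, miR-291a-3p, miR-294-3p and miR-295-3p share the seed AAGUGCU, and miR-290a-5p, miR-292a-5p and miR-293-5p share CUCAAAC. Mir200a, Mir200b and Mir429, microRNAs of epithelia, lay in 28.0 kb with a score of 8.36, and miR-200b-3p and miR-429-3p share AAUACUG. Mature sequences were matched for 66 of the 75 genes, giving 120 sequences with 107 seeds, of which 11 occurred in 2 or more genes, such as that of Mir379 and Mir411 or of Mir204 and Mir211. Mir182, a sensory organ microRNA, had the highest score, 11.4 over 52.4 kb, and its cluster mates Mir96 and Mir183 in the same region have H3K4me3.

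The rule did not use promoter sequence itself. It did leave out genes with H3K4me3, which lies above all at CpG islands, so the CG ratio is not independent of the choice. When only the upper 50% of each other list removed a gene, the median ratio was 0.35 and the TATAAA share 5.44%. Windows were matched for 2428 of the 3240 genes. The observed over expected ratio of CG dinucleotides had a median of 0.20 in H3K27me3-only genes (interval 0.194 to 0.209), 0.53 in the 2226 genes with H3K27me3 and H3K4me3 only, 0.79 in the 1032 genes listed for all 4 antibodies, and 0.83 in the 6082 active genes listed for H3K4me3, H3K27ac and Pol II without H3K27me3. It was 0.11 in 757 chemoreceptor genes and 0.39 over all 27025 RefSeq genes with a window. A ratio of 0.6 or more, taken here as CpG-rich, was found in 103 of 2428 H3K27me3-only promoters (4.24%, interval 3.48 to 5.12), against 917 of 2226 (41.2%) of those with H3K27me3 and H3K4me3 only and 36.5% of all RefSeq windows. The median count of CG dinucleotides per window was 3 in H3K27me3-only genes and 13 in genes with H3K27me3 and H3K4me3 only.

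The low ratio held along the range of scores. It had a median of 0.19 in the genes with scores under 3, 0.21 with scores from 3 to 6, and 0.20 with scores of 6 or more. In the genes with a marked neighbour in their region it was 0.19, and in those with a region to themselves 0.21. The 103 CpG-rich exceptions included Psd4 (ratio 0.93, score 10.8), Prkcd (0.73, score 9.61), Papss2 (0.88, score 8.54), Fgd5 (0.97, score 7.38) and Tet1 (0.61, score 7.05). These 5 were named after their values were seen.

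The TATA motif was more frequent than in the other classes and in all RefSeq windows. The classes also differ in CG ratio, and the motif was not compared between genes of like ratio. TATAAA on the gene's strand, starting 20 to 40 bases before the start, was found in 197 of 2428 H3K27me3-only promoters (8.11%, interval 7.06 to 9.27). It was found in 3.41% (interval 2.70 to 4.25) of those with H3K27me3 and H3K4me3 only, in 0.969% (0.466 to 1.78) of genes listed for all 4 antibodies, in 1.19% (0.545 to 2.24) of chemoreceptor genes, and in 2.22% of all 27025 RefSeq windows. Genes that share a region with other H3K27me3-only genes had it in 58 of 449 windows (12.9%, interval 9.96 to 16.4), and genes with a region to themselves in 112 of 1652 (6.78%, interval 5.62 to 8.10). A match says only that the letters are there, and promoters of duplicated genes are not independent.

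**Figure D5:**
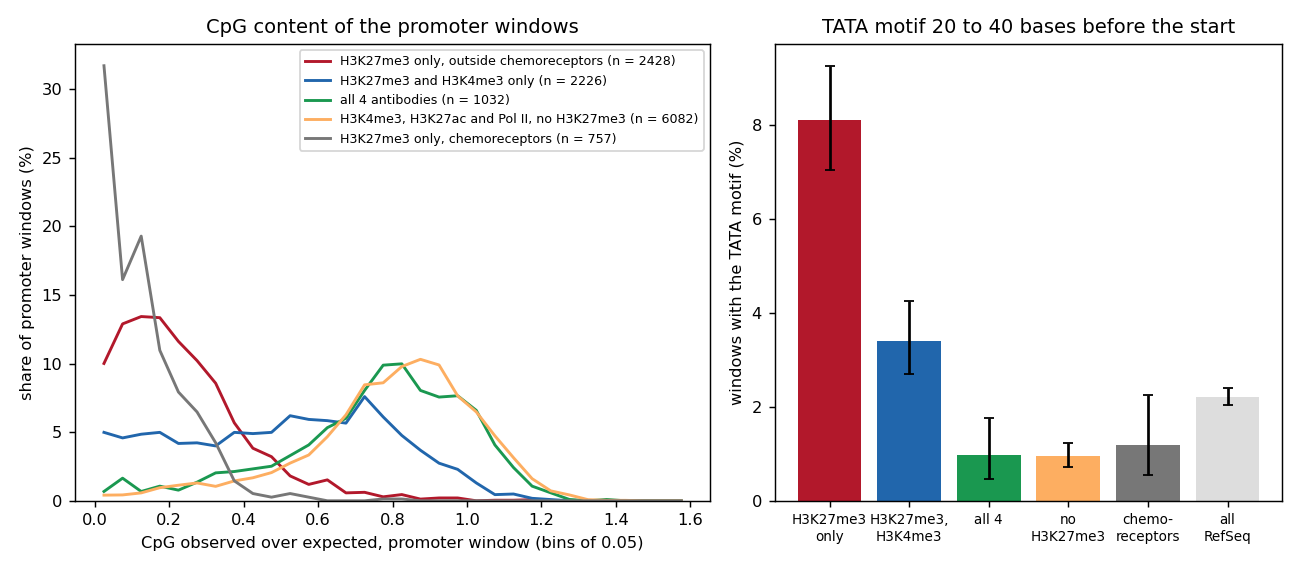
Left, distribution of the observed over expected CG ratio (horizontal, bins of 0.05) in promoter windows of 5 classes of genes (vertical, % of windows); H3K27me3-only genes have a median of 0.20 and genes with H3K27me3 and H3K4me3 only 0.53. Right, share of windows with TATAAA 20 to 40 bases before the start (%), with exact 95% intervals as bars; it is 8.11% in H3K27me3-only genes and 2.22% in all RefSeq genes.

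Of the 197 matches, 163 lay outside the symbol patterns of keratins and cornified envelope genes. Provisional symbols in regions with keratin-associated genes still count among them, such as Gm11595, listed like Krtap4-9 with 3.59 over 34.5 kb. The motif was in 28 of 61 promoters of keratins and keratin-associated proteins in the set (45.9%, interval 33.1 to 59.2) and in 6 of 21 of cornified envelope proteins (28.6%). Without the symbols of both patterns the share was 163 of 2346 (6.95%, interval 5.95 to 8.05). Krt32, printed above, shared its region of 70.8 kb with Krt13 and Krt15. Of the 32 patterns with 10 or more promoters in the set, 21 had a share above the 2.22% of all RefSeq windows and 11 had no match, among them 23 taste receptor and 20 spermatogenesis promoters. The median CG ratio of these 32 patterns ranged only from 0.09 to 0.29.

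The rule has an edge at the authors' lowest listed scores. Just inside, Csad, Dsc1, Aldh1a7 and Bckdhb had H3K27me3 scores of 2.0 over regions of 2.7 to 4.6 kb. Just outside, Cyp4f39, Mlana, BC048671, Mir219-2 and Dmrtb1 had H3K27me3 scores between 2.58 and 6.26, and H3K4me3 scores of 2.0007 to 2.0053 that kept them out. Of 2827 genes outside the chemoreceptor prefixes with H3K27me3 and 1 other mark, 809 had that mark with a score under 3. When only the upper 50% of each other list by score removed a gene, 6866 genes qualified, and when only the upper 50% of H3K27me3 regions were used, 1630 did. By chromosome, the set took from 26.9% of H3K27me3 genes outside the chemoreceptor prefixes on chromosome 18 (57 of 212) to 53.5% on the X chromosome (115 of 215), and 48.6% on chromosome 6 (252 of 519). On chromosomes 7, 11 and 2, which have the most such genes, the share was 38.3%, 35.6% and 33.4%. Over the whole H3K27me3 list it was 34.2%, on a base that includes chemoreceptor genes. Chromosomes 18, X and 6 were named after their values were seen.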

How the data were processed

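ChIP-seq region lists of 4 antibodies were used, 1 library each; per the labels, each list belongs to 1 library set against input. The submitters' processing notes name Bowtie 0.12.7, MACS 1.4 and mm9. Depth per library is unknown, since the lists give no read counts. The deposited lists give a score per region (lowest 2.0002 for H3K27me3; its scale is not given in the sources used here) and the region's position, other columns being the transcript and symbol. The file names refer to 3 kb up and down of transcription starts.

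A region listed with several scores (33 H3K27me3 regions) kept the highest, and 29 H3K27me3 rows without a symbol (0.246%) were left out. Regions sharing 1 bp or more counted as overlapping. Symbols were joined to RefSeq (GRCm38.p6) by accession, symbol or synonym (3211 of 3240). Sequences are from RefSeq windows, the first of a gene. Windows on chromosome 18 are not analysed here. Intervals are exact binomial (Clopper-Pearson) or order statistics at 95%; genes share regions, so they cover counting error only. No test was run. Genes named are those of the 10 highest-scoring, 10 widest and 5 most shared regions, the highest-scoring members of each symbol pattern, marked relatives, and those at the edge of the rule, of which 1 is not reported here. The members, patterns and lists were chosen with earlier results of these data known. The steps were tested on simulated data. Software was matplotlib 3.10.9 for drawing, scipy 1.17.1 for intervals, and pandas 2.3.3 with numpy 2.4.6 under Python 3.11.15 for tables.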

Additional observations from a re-analysis of the deposited data

How the results depend on the processing

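With the upper 50% of H3K27me3 regions by score, 1630 genes qualified, with a median width of 31.9 kb and score of 4.24; 23.4% had a marked neighbour in their region and 20.6% of regions shared bases with H3K4me3. With only the upper 50% of each other list removing a gene, 6866 qualified, with medians of 17.9 kb and 3.81, 3.93% with a marked neighbour and 2.83% of regions sharing bases with H3K4me3. There the median CG ratio was 0.35 and the TATAAA share 5.44%. Leaving out genes whose region shares bases with another antibody's region gave medians of 13.4 kb and 3.10, with a marked neighbour for 1.55% and, by construction, 0% of regions sharing bases. Counting each region once gave 12.4 kb and 3.03. A neighbour with H3K27ac or Pol II was found for 5.62% of genes, and 6.77% of regions shared 0.5 of the narrower region with H3K4me3. The median was 1.0 CG per 100 bases, against 2.33 over all RefSeq windows, and TATAAA anywhere on either strand was in 22.3%, against 14.2%. With each gene's window of most CG, an alternative added after seeing the data, the median ratio was 0.21, against 0.41. The other alternatives, which left out further receptor genes, non-coding genes or genes with several windows, moved no count of genes by over 1.5 times, and no median or share over the whole set out of its interval. Of 254 shares of single patterns under the alternatives, 187 stayed inside their interval and 67 did not. Of these 67, 40 were under the upper 50% of the other lists, 17 under the upper 50% of H3K27me3 regions and 7 without regions sharing bases. The last 3 were taste receptors, trace amine receptors and the Ms4a family, at 0% by construction once their symbols were left out. The other causes were not tested. No paired analysis was possible because each antibody has 1 library.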
